A study of Mus musculus with 10 samples.

Results

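The WNK kinases and the cation-chloride cotransporters they control were followed in hearts that overexpress SPOP. The 8 genes are the kinase genes Wnk1, Wnk2 and Wnk4, the genes Stk39 and Oxsr1 of the downstream kinases SPAK and OSR1, and the cotransporter genes Slc12a2 (NKCC1), Slc12a4 (KCC1) and Slc12a7 (KCC4). They were taken by symbol from the 24888 genes of the deposited table, and each symbol had 1 row. Because WNK4 protein is a known target of a cullin-3 ligase and the 8 genes were chosen partly on their read values in SPOP_CKI and Cre_control, with results of this comparison in view, their differences between the groups are given as a description, with no p-value.

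The study profiled poly(A) RNA of heart tissue in 5 libraries labelled SPOP cKI, with cardiac overexpression of SPOP by the alphaMHC-Cre system (SPOP_CKI), and in 5 libraries titled wild type with the genotype Myh6Cre (Cre_control). The labels do not state whether the 5 repeats of a group are separate animals. Controls carry the Cre transgene alone, and Cre is shared by both groups. All libraries are labelled male, and the mice were 8 to 10 weeks old and belong to the sham condition. The Myh6 promoter drives Cre in cardiomyocytes, whereas the RNA came from all cells of the heart, so that fewer cells of a type and less RNA per cell cannot be told apart.

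WNK kinases lack the usual catalytic lysine, sense intracellular chloride and phosphorylate SPAK and OSR1. These in turn phosphorylate the cotransporters, which activates NKCC1, a carrier of sodium, potassium and chloride into the cell, and inhibits the potassium-chloride carriers KCC1 and KCC4. WNK proteins are handed to cullin-3 for ubiquitination by the adaptors KLHL3 and KLHL2, while SPOP is another adaptor of cullin-3. None of these steps, which act on proteins and phosphorylation, is seen in RNA levels.

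Wnk1 and Wnk4, the WNK genes that lay apart in opposite directions, are shown by the 250 bases before their RefSeq start. Capitals mark the GC box letters GGGCGG read on either strand. The Wnk1 stretch is chr6:120038656-120038905 on the minus strand and the Wnk4 stretch chr11:101260317-101260566 on the plus strand (RefSeq, GRCm38.p6).
Wnk1: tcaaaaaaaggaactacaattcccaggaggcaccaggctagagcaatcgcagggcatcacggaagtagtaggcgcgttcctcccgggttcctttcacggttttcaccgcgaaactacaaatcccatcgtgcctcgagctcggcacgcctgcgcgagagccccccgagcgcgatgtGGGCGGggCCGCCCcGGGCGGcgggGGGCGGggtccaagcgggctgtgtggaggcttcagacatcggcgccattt
Wnk4: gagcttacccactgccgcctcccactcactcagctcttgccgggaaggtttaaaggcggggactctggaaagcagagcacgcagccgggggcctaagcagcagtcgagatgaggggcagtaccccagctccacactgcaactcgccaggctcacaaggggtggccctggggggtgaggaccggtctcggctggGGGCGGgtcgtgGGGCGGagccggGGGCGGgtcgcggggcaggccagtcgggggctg
Both stretches are rich in G and C, at 64.0% for Wnk1 and 70.0% for Wnk4, against a median of 52.4% over 32851 promoters. The GC box occurs 4 times before Wnk1 and 3 times before Wnk4, and 32.7% of promoters hold at least 1. Of the other members found in the RefSeq table, Stk39 had 4, Slc12a4 3, Oxsr1 1 and Wnk2 0, while the neighbouring starts of Slc12a7 had 3 and 6. The TATA box letters TATAAA, read on both strands and present in 12.4% of promoters, occurred before none of them. The NFAT core TGGAAA, present in 18.6% of promoters on either strand, occurred 1 time each before Wnk2, Wnk4 and Stk39. The E-box CANNTG, found in 66.2% of promoters, occurred 1 time each before Wnk2 and Slc12a4 and 2 times before each start of Slc12a7. Promoters of the chromosome that holds Slc12a2 were left out, also from the 32851. In all, 7 of the 8 genes were thus matched, and Slc12a2 was not. These matches describe letters in a window and say nothing on whether a factor binds there.

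Library depth was 15316293 to 17114869 recovered reads, and values below are reads divided by the authors' size factors (scaled reads). The overexpressed gene, Spop, had a mean of 31897 ± 6254 in SPOP_CKI libraries against 3425 ± 317 in Cre_control libraries (SD, n = 5 each), with values from 25308 to 40631 against 3078 to 3726. By an exact permutation test (two-sided) p was 0.0079, which 5 libraries a group cannot go below. Library SPOP_CKI 3 stood apart, with 12593 genes at 10 scaled reads or more, against 14120 to 14358 in the other 9. Although all libraries are labelled male, Xist, the transcript of the inactive X chromosome, was at 4491 to 6578 scaled reads in 3 libraries (SPOP_CKI 1, SPOP_CKI 3 and Cre_control 5) and at most 5.31 in the other 7. Over all 14212 genes tested (limma on log2(scaled reads + 1), adjusted p under 0.05), 3168 were called, and the median difference was −0.11 on the log2 scale. That median moved to 0.03 with quantile normalization and to 0.02 and 0.00487 with edgeR and DESeq2 on recovered reads.

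All 8 genes reached 10 scaled reads in every library. In that fit 3 were called higher in SPOP_CKI (Wnk1, Stk39 and Slc12a7), 2 lower (Wnk2 and Wnk4) and 3 not called (Oxsr1, Slc12a2 and Slc12a4). Of all genes tested, 22.3% were called, 10.0% higher and 12.3% lower, and nothing is read from the members' count since the same contrast chose them. Groups did not overlap for 3 of the 8 (Wnk1, Wnk4 and Slc12a7), against 21.3% of all genes. The differences were positive for 4 genes and negative for 4 (median log2 difference 0.16).

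**Figure D1:**
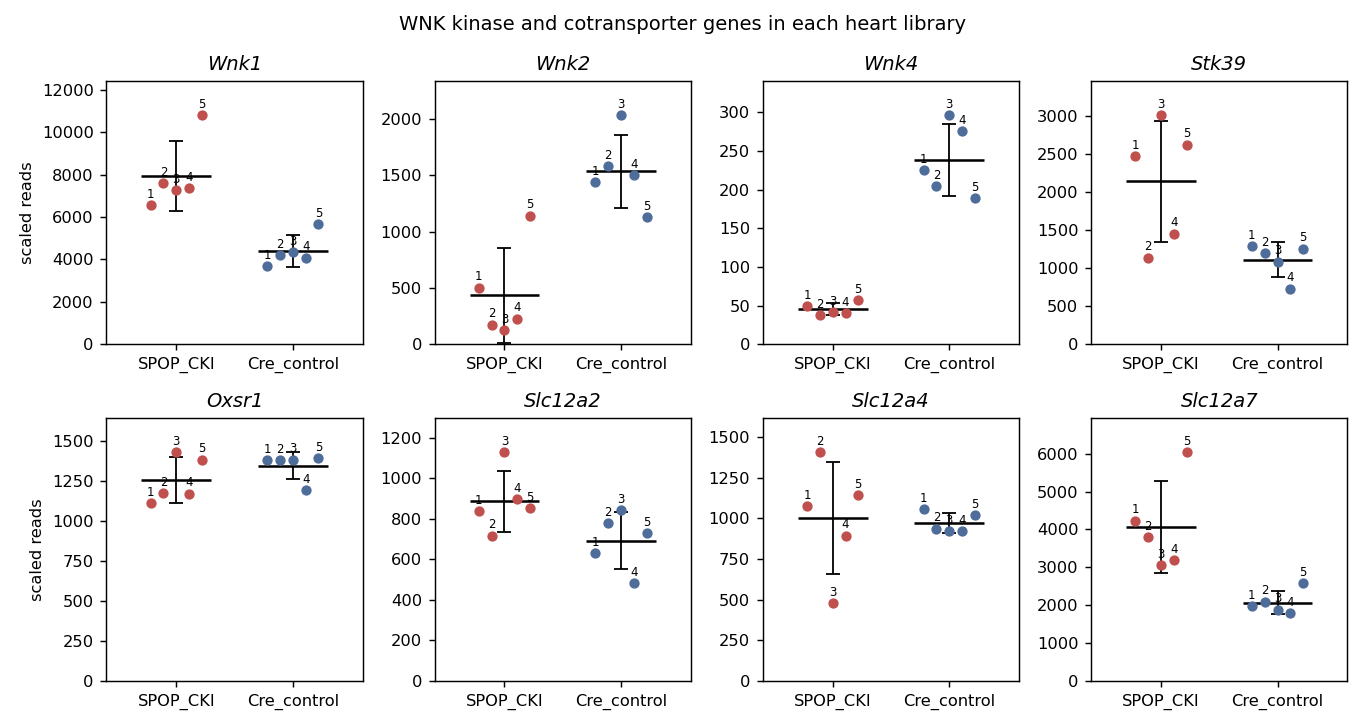
Scaled reads of the 8 genes (y axis, from 0), with 1 panel per gene, 1 numbered point per library, a line at the group mean and bars of 1 SD, SPOP_CKI left of Cre_control. The groups are separate for Wnk1, Wnk4 and Slc12a7, while for Wnk2 and Stk39 a single SPOP_CKI library reaches the controls.

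Wnk1, the WNK gene with the most reads in these hearts (ENSMUSG00000045962, mm10 chromosome 6, 119923969 to 120038672, minus strand), was higher in SPOP_CKI. It had 6574, 7592, 7274, 7377 and 10793 scaled reads in SPOP_CKI libraries 1 to 5, against 3666, 4212, 4334, 4079 and 5646 in Cre_control libraries 1 to 5. Every SPOP_CKI library lay above every control, and library 5 was the highest of its group on both sides. The means were 7922 ± 1650 in SPOP_CKI and 4388 ± 747 in Cre_control, a log2 difference of 0.85 (SE 0.18, 95% interval 0.46 to 1.24), or 1.80-fold. The gene has 15 annotated coding transcripts, which a value per gene does not separate.

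Wnk2, a WNK kinase known from brain and heart (chromosome 13, 49036303 to 49148014, minus strand), was lower in SPOP_CKI and by far the most variable of the 8 genes there. Its libraries held 503, 173, 124, 228 and 1143 scaled reads in SPOP_CKI and 1439, 1584, 2034, 1500 and 1129 in Cre_control. The groups met only at library 5, where SPOP_CKI had its highest and Cre_control its lowest value. The coefficient of variation was 97.2% in SPOP_CKI and 21.3% in Cre_control. The log2 difference was −2.28 (SE 0.51, 95% interval −3.40 to −1.17), from means of 434 ± 422 in SPOP_CKI and 1537 ± 327 in Cre_control.

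Wnk4 (chromosome 11, 101260567 to 101277409, plus strand), the WNK kinase best known for control of salt handling in the kidney, had the largest difference of the 8 genes. SPOP_CKI libraries held 48.8, 38.0, 41.2, 40.1 and 56.7 scaled reads, and Cre_control libraries 225, 205, 296, 276 and 189. Both groups were tight, and the lowest control stood 3.33-fold above the highest SPOP_CKI library. The means of 44.9 ± 7.73 in SPOP_CKI and 238 ± 46.1 in Cre_control gave a log2 difference of −2.37 (SE 0.22, 95% interval −2.86 to −1.89), or 5.18-fold lower. Wnk4 overlaps the antisense gene Gm11615 by 1542 bases, and the strand setting of the counting is unstated in the sources used here, so its reads are uncertain by that overlap.

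The calls of Wnk1, Wnk2 and Wnk4 and their directions held in all 21 alternative settings, with log2 differences of 0.73 to 1.06, −2.75 to −1.80 and −2.46 to −2.17 in that order of genes. Without the 3 libraries with Xist reads the differences were 1.06 for Wnk1, −2.18 for Wnk2 and −2.46 for Wnk4. Without SPOP_CKI 3 alone they were 0.87, −1.95 and −2.35. The authors' deposited table lists log2 fold changes of 0.85 for Wnk1, −1.82 for Wnk2 and −2.41 for Wnk4, and of the 3 it is Wnk2 whose value differs most from that given here.

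**Figure D2:**
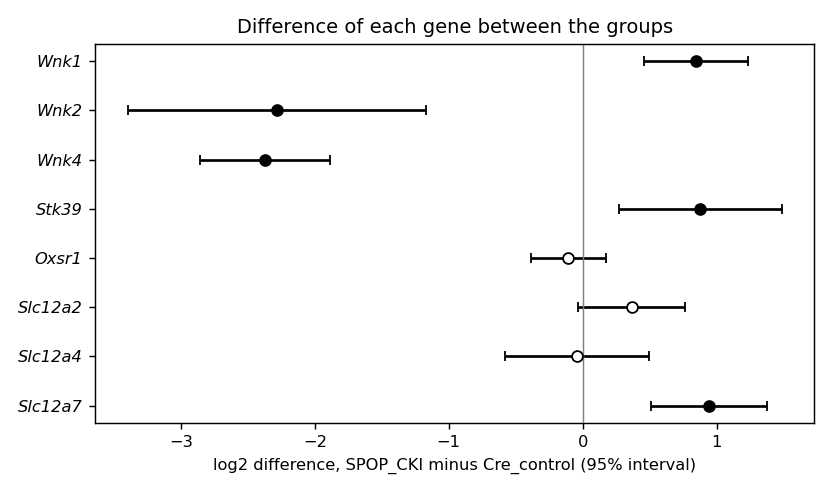
Difference of each of the 8 genes between SPOP_CKI and Cre_control on the log2(scaled reads + 1) scale (x axis, SPOP_CKI minus Cre_control), with 95% intervals over 5 libraries per group. Filled points are genes called in the fit over all genes and open points are not. Wnk2 and Wnk4 lie near −2.28 and −2.37, and Wnk1, Stk39 and Slc12a7 between 0.85 and 0.94.

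With opposite differences, the make-up of WNK transcripts shifted. Levels were compared per kilobase of the longest coding transcript, as scaled reads per kilobase. Wnk1 made up 91.1 ± 5.19% of WNK transcripts in SPOP_CKI and 57.9 ± 7.35% in Cre_control. Wnk2 made up 7.32 ± 5.22% in SPOP_CKI and 33.4 ± 6.10% in Cre_control, and Wnk4 1.44 ± 0.216% and 8.68 ± 1.59% in the same order of groups. For each of the 3 the groups did not overlap. Wnk3, the remaining WNK gene, was near 0, at 5.86 ± 6.60 scaled reads in SPOP_CKI, against 1.52 ± 1.44 in Cre_control, and did not pass the filter.

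The summed WNK level, by contrast, overlapped between the groups, at 774 ± 201 scaled reads per kilobase in SPOP_CKI and 668 ± 62.4 in Cre_control. Each library's ratio of Wnk1 to Wnk4 per kilobase was 49.0, 72.6, 64.2, 66.9 and 69.2 in SPOP_CKI, against 5.92, 7.47, 5.32, 5.37 and 10.9 in Cre_control. The lowest SPOP_CKI ratio, 49.0, thus lay far above the highest control ratio, 10.9. With the gene lengths of the deposited table, which are 22825 bases for Wnk1 against 11330 for its longest coding transcript, the shares of Wnk1 were 86.0% in SPOP_CKI and 44.8% in Cre_control. The groups also did not overlap for Wnk2 and Wnk4 on that scale.

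**Figure D3:**
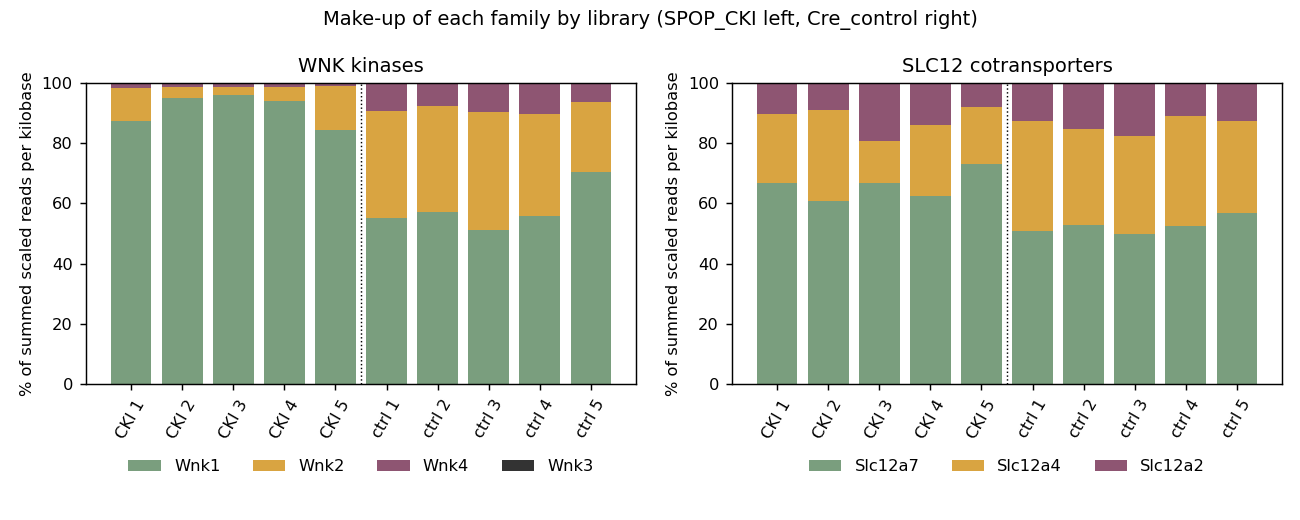
Share of WNK transcripts (left) and of the 3 cotransporter genes (right) in each library, in percent of scaled reads per kilobase of the longest coding transcript, as stacked bars that start at 0, SPOP_CKI libraries (CKI 1 to 5) left of Cre_control libraries (ctrl 1 to 5). Wnk1 takes 84.1% or more of WNK transcripts in each SPOP_CKI library and at most 70.4% in each control.

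SPAK and OSR1 are paralogous kinases, and their genes behaved differently. Stk39 (SPAK; chromosome 2, 68210445 to 68472268, minus strand) had 2476, 1142, 3014, 1456 and 2629 scaled reads in SPOP_CKI, against 1291, 1198, 1087, 733 and 1260 in Cre_control. SPOP_CKI 1, 3 and 5 stood well above all controls, SPOP_CKI 4 just above them, and SPOP_CKI 2 within their range. The log2 difference was 0.88 (SE 0.28, 95% interval 0.27 to 1.49), from means of 2143 ± 803 in SPOP_CKI and 1114 ± 227 in Cre_control.

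Of the 8 genes, only Stk39 lost its call in any of the 21 alternatives. It was no longer called in 9 of them, namely with array weights (0.54), without SPOP_CKI 1 or 5, without any 1 of the 5 control libraries, and without the 3 libraries with Xist reads (0.63). Leaving out single libraries gave log2 differences of 0.73 to 1.08. The direction stayed positive in each.

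Oxsr1 (OSR1; chromosome 9, 119238432 to 119322427, minus strand) had 1110, 1174, 1429, 1169 and 1382 scaled reads in SPOP_CKI and 1378, 1380, 1382, 1191 and 1393 in Cre_control. SPOP_CKI 1, 2 and 4 lay below all controls, SPOP_CKI 5 within their range and SPOP_CKI 3 above them. The means were 1253 ± 143 in SPOP_CKI and 1345 ± 86.3 in Cre_control. The log2 difference of −0.11 had a 95% interval of −0.39 to 0.17, and was −0.20 to −0.07 over the alternatives. The annotation of Slc22a14 on the same strand spans the gene for 83996 bases, so reads there may be shared or lost in counting.

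The ratio of Stk39 to Oxsr1 per kilobase set these values side by side within each library. It was 2.93, 1.28, 2.77, 1.64 and 2.50 in SPOP_CKI and 1.23, 1.14, 1.03, 0.809 and 1.19 in Cre_control. The groups did not overlap, although SPOP_CKI 2 lay just above the highest control. The mean was 2.22 ± 0.727 in SPOP_CKI and 1.08 ± 0.169 in Cre_control, or 1.83 and 0.888 with the deposited gene lengths.

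Among the cotransporters the potassium-chloride carrier gene Slc12a7 (KCC4; chromosome 13, 73733094 to 73816754, plus strand) was higher in SPOP_CKI. It had 4234, 3792, 3063, 3181 and 6045 scaled reads in SPOP_CKI and 1977, 2097, 1883, 1790 and 2579 in Cre_control. All SPOP_CKI libraries lay above all controls, and library 5 was again the highest of each group. The means were 4063 ± 1205 in SPOP_CKI and 2065 ± 309 in Cre_control, a log2 difference of 0.94 (SE 0.20, 95% interval 0.51 to 1.38), or 1.92-fold. The call held in all 21 alternatives, at 0.79 to 1.11, and the difference was 1.11 without the libraries with Xist reads.

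Slc12a4 (KCC1; chromosome 8, 105943590 to 105966097, minus strand) had close group means and a wide spread in SPOP_CKI. The libraries held 1075, 1407, 480, 893 and 1143 scaled reads in SPOP_CKI and 1055, 937, 921, 921 and 1020 in Cre_control. SPOP_CKI 3 was the lowest and SPOP_CKI 2 the highest of all 10, and the coefficient of variation was 34.4% in SPOP_CKI against 6.45% in Cre_control. The log2 difference of −0.04 (95% interval −0.58 to 0.50) became 0.20 without SPOP_CKI 3 and 0.24 without the libraries with Xist reads. Its overlap with the antisense gene Gm16156 concerns few reads, since that gene averaged 0.826 scaled reads in SPOP_CKI and 0.680 in Cre_control.

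Slc12a2, the gene of the inward carrier NKCC1, had 836, 717, 1129, 898 and 854 scaled reads in SPOP_CKI, against 631, 779, 843, 481 and 729 in Cre_control. The highest library was SPOP_CKI 3 and the lowest Cre_control 4, but SPOP_CKI 2 and 1 lay within the control range. The log2 difference was 0.37 (95% interval −0.03 to 0.77), from means of 887 ± 151 in SPOP_CKI and 693 ± 142 in Cre_control. It was not called in any alternative, where it was 0.24 to 0.44.

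Per kilobase of the longest coding transcript, Slc12a7 made up 65.9 ± 4.85% of the 3 cotransporter transcripts in SPOP_CKI and 52.5 ± 2.77% in Cre_control, with no overlap. Slc12a4 made up 21.9 ± 6.06% in SPOP_CKI and 33.6 ± 2.77% in Cre_control, which did not overlap on this scale and did with the deposited lengths. The level of Slc12a2 relative to Slc12a4 plus Slc12a7, that is, of the inward carrier relative to the outward carriers, was 0.141 ± 0.0619 in SPOP_CKI and 0.162 ± 0.0350 in Cre_control, with overlapping groups. The makeup of these 3 carriers thus differed in Slc12a7, while their inward-to-outward ratio did not separate the groups. Other potassium-chloride carrier genes were not counted in the shares or the ratio.

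In order of level per kilobase of the longest coding transcript, SPOP_CKI libraries had Slc12a7 (790), Wnk1 (699), Stk39 (606), Oxsr1 (270), Slc12a4 (262), Slc12a2 (136), Wnk2 (63.0) and Wnk4 (10.9). Cre_control libraries had Slc12a7 (402), Wnk1 (387), Stk39 (315), Oxsr1 (289), Slc12a4 (255), Wnk2 (223), Slc12a2 (106) and Wnk4 (57.8). Wnk2 was the gene that changed its place, standing below Slc12a2 in SPOP_CKI and above it in Cre_control. Neighbours in the order whose libraries did not overlap were Stk39 and Oxsr1, and Wnk2 and Wnk4, in SPOP_CKI, and Wnk2 and Slc12a2, and Slc12a2 and Wnk4, in Cre_control. With the deposited lengths the upper places differed, with Stk39 first in SPOP_CKI and Oxsr1 first in Cre_control, and Wnk4 was last in both.

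The genes around the pathway were drawn from 5 lists of 62 genes, of which 61 are in the table and 56 passed the filter. Of these, 12 were higher (21.4%) and 7 lower (12.5%) in SPOP_CKI, against 10.0% and 12.3% of all genes, with a median log2 difference of 0.11 against −0.11. The lower count includes Clcn1, which passed the filter through the controls alone and so is no support. The count of genes called lower in these lists was 3 without Cre_control 1, 4 without Cre_control 2 or 4, 11 without SPOP_CKI 3 and 12 with those that hold Xist reads left out. The lists were written with earlier results of these data known. All adjusted p-values below are from limma with Benjamini-Hochberg adjustment over the 14212 genes.

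Among the regulators of WNKs, 1 of 11 tested genes was lower and 0 higher (limma), against 12.3% and 10.0% of all genes. At an unadjusted p under 0.05 (limma), 3 were lower and 2 higher. On recovered reads, edgeR called 1 lower and 0 higher, and DESeq2 2 lower and 1 higher. Array weights gave 4 lower and 0 higher, and quantile normalization 2 lower and 1 higher. Without SPOP_CKI 3, and also without the libraries with Xist reads, 3 were lower and 0 higher. Without SPOP_CKI 2, 1 was higher, namely Cab39, a scaffold of SPAK and OSR1 named here after its values were seen. The called gene was Nedd4l, a ubiquitin ligase best known for removing the epithelial sodium channel, at 389 ± 91.5 scaled reads in SPOP_CKI, against 626 ± 51.4 in Cre_control (log2 difference −0.71, SE 0.17, adjusted p = 0.0148). Its groups did not overlap. Sgk1, a kinase that restrains NEDD4L, was at 1770 ± 832 in SPOP_CKI and 2761 ± 233 in Cre_control (−0.75, adjusted p = 0.0551). It passed the threshold without SPOP_CKI 3 (adjusted p = 0.00172) and with the 3 libraries that hold Xist reads left out (0.00755). On all 10 libraries it passed with quantile normalization (0.0463), a pseudocount of 10 (0.0481), a filter of 50 scaled reads (0.0485) and array weights (0.00126).

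The cullin-3 genes that act on WNK proteins did not pass the test in the limma fit. Klhl3, the adaptor that binds WNK4, was at 68.2 ± 27.4 scaled reads in SPOP_CKI, against 124 ± 29.7 in Cre_control (log2 difference −0.94, SE 0.34, adjusted p = 0.0646), and single libraries overlapped. It passed without SPOP_CKI 3 (adjusted p = 0.0463), without SPOP_CKI 5 (0.0417) or without the libraries with Xist reads (0.0449). On all 10 libraries Klhl3 passed with DESeq2 (adjusted p = 0.0481) and with array weights (0.0217), and did not with edgeR (0.0912). Klhl2 averaged 318 ± 55.9 in SPOP_CKI and 298 ± 74.4 in Cre_control (adjusted p = 0.727). The scaffold Cul3 averaged 3046 ± 764 in SPOP_CKI and 2737 ± 411 in Cre_control (adjusted p = 0.627).

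Of the other SLC12 genes, 0 of 4 tested passed in either direction (limma), against 22.3% of all genes. At an unadjusted p under 0.05 (limma), 1 was lower and 0 higher. By edgeR 0 passed, and by DESeq2 1 was lower and 0 higher. Slc12a5, the gene of the neuronal carrier KCC2, was low, at 8.74 ± 7.17 scaled reads in SPOP_CKI libraries and 33.0 ± 13.4 in Cre_control (log2 difference −2.24, adjusted p = 0.0572), and reached 10 scaled reads in 2 SPOP_CKI libraries and in all 5 controls, which alone satisfied the filter. It passed without SPOP_CKI 1 (adjusted p = 0.0363), without SPOP_CKI 3 (0.0207) and without the libraries with Xist reads (0.0238). On all 10 libraries it passed with DESeq2 (0.0346), quantile normalization (0.0437), a pseudocount of 10 (0.0214) and array weights (0.0429), and did not with edgeR (0.0919). Since the controls alone satisfied the filter, these passes are no support. Its log2 difference depended on the pseudocount, at −2.48 with 0.5 and −1.23 with 10.

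Of the chloride channel genes, 4 of 17 were called higher and 2 lower, against 10.0% and 12.3% of all genes. The higher and lower counts were 4 and 2 by edgeR, 7 and 2 by DESeq2, and 5 and 4 with array weights. The higher ones were Clcn5, an endosomal chloride-proton exchanger (2.30-fold, adjusted p = 0.0115), the intracellular channel proteins Clic5 (log2 difference 0.90, adjusted p = 0.0102) and Clic4 (0.66, adjusted p = 0.0250), and Lrrc8c, a subunit of the volume-regulated anion channel (0.61, adjusted p = 0.0190). Clcn5 averaged 192 ± 71.7 scaled reads in SPOP_CKI and 79.0 ± 14.3 in Cre_control, and Lrrc8c 1318 ± 213 in SPOP_CKI and 859 ± 126 in Cre_control. Clcn1, the chloride channel of skeletal muscle, averaged 3.58 ± 2.42 in SPOP_CKI and 63.1 ± 15.2 in Cre_control. It makes up 1 of the 2 lower calls, but it passed the filter through the controls alone and so had to differ, and its call is no support. Its log2 difference depended on the pseudocount, at −4.04 with 1 and −2.42 with 10. Ano10, of the anoctamin family, was at 434 ± 58.1 in SPOP_CKI and 846 ± 316 in Cre_control (−0.90, adjusted p = 0.0156). The higher count was 2 without Cre_control 1 or 4, with Clic4 (adjusted p = 0.0587 and 0.0629) and Lrrc8c (0.0572 and 0.0507) no longer called. Clic4 was also not called without Cre_control 3 (0.0539), where the higher count was 3. The lower count was 1 without any 1 control, since Clcn1 then failed the filter.

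Genes that set the sodium gradient and exchange anions were called higher in 5 and lower in 3 of 15, against 10.0% and 12.3% of all genes. DESeq2 gave the same counts, while edgeR called 5 higher and 2 lower. Atp1b1, a beta subunit of the sodium pump, was at 7611 ± 1351 scaled reads in SPOP_CKI, against 3498 ± 710 in Cre_control (log2 difference 1.13, SE 0.20, adjusted p = 0.00300), with no overlap. Atp1b3, another beta subunit, was higher too, at 1942 ± 531 in SPOP_CKI and 1110 ± 99.7 in Cre_control (0.76, adjusted p = 0.0191). The pump regulator Fxyd1 (phospholemman) was lower, at 1302 ± 679 in SPOP_CKI and 2666 ± 713 in Cre_control (−1.19, adjusted p = 0.0450).

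Slc8a1, the cardiac sodium-calcium exchanger, was at 3001 ± 1079 scaled reads in SPOP_CKI, against 1489 ± 384 in Cre_control (log2 difference 0.98, adjusted p = 0.0132). Slc4a7, a sodium-bicarbonate carrier, was higher (0.94, adjusted p = 0.0135), and the anion exchanger Slc4a3 lower (−1.23, adjusted p = 0.0212). Several of these calls rested on single libraries. Fxyd1 lost its call without any of 7 of the libraries in turn, SPOP_CKI 4 and 5 and the 5 controls (adjusted p = 0.0559 to 0.109), and on all 10 libraries with edgeR (0.0646) and with no filter on low values (0.0648). Without Cre_control 1 the lower count of this list was 0, and Slc4a3 had an adjusted p of 0.0535. The count was 1 without Cre_control 2, where Slc4a3 had an adjusted p of 0.0501, and 1 without Cre_control 4. Without Cre_control 4 the higher count was 3, with Atp1b3 at an adjusted p of 0.0519.

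In the osmotic list, 3 of 9 tested genes were called higher and 1 lower, against 10.0% and 12.3% of all genes. By edgeR 3 were higher and 1 lower, by DESeq2 4 and 2, and with array weights 4 and 3. Slc5a3, which carries the osmolyte myo-inositol with sodium, was at 267 ± 43.0 scaled reads in SPOP_CKI, against 59.7 ± 11.4 in Cre_control (log2 difference 2.15, SE 0.21, adjusted p = 0.000241). Slc38a2, an amino acid carrier induced by hypertonic medium, was at 8810 ± 1316 in SPOP_CKI and 3694 ± 1142 in Cre_control (1.30, adjusted p = 0.00338). Nfat5, the transcription factor of the tonicity response, was at 1832 ± 370 in SPOP_CKI and 1088 ± 277 in Cre_control (0.77, adjusted p = 0.0193), and was not called without Cre_control 1 (adjusted p = 0.0564) or Cre_control 2 (0.0532). Aqp7, a water and glycerol channel, was lower, at 237 ± 89.8 in SPOP_CKI and 1444 ± 152 in Cre_control (−2.71, SE 0.29, adjusted p = 0.000326). The groups did not overlap for any of these 4, which were named because they were called. They overlapped for the other tested genes of the list. Of all genes tested, 21.3% did not overlap. The lower count was 2 without SPOP_CKI 5, where the water channel gene Aqp1, named after its values were seen, passed as well.

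**Figure D4:**
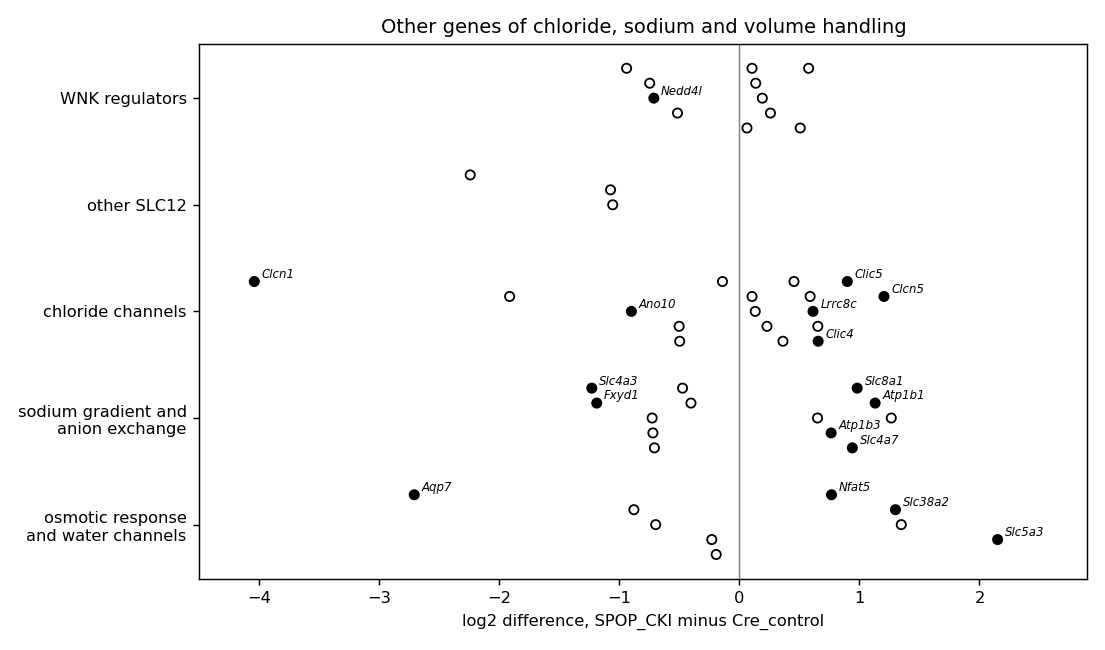
Log2 difference of 53 of the tested genes of the 5 lists between SPOP_CKI and Cre_control (x axis, SPOP_CKI minus Cre_control), 1 row per list and 1 point per gene, with called genes filled and named. Slc5a3 lies farthest right, at 2.15, and Clcn1 and Aqp7 farthest left, at −4.04 and −2.71. Clcn1 passed the filter through the controls alone.

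Markers of the cells in the heart were summed for each library as a check on the tissue. The cardiomyocyte list was far the most abundant, so that the label of heart tissue was borne out, and its sum was 341086 to 627616 scaled reads in SPOP_CKI and 585098 to 791754 in Cre_control (1 of 8 called higher, 4 lower). SPOP_CKI 1 and 5 had the highest cardiomyocyte sums of their group, at 627616 and 573090, and also the highest values of Wnk2 and Wnk4. The controls did not follow this order. Cre_control 3 had the lowest sum, at 585098, and the highest values of Wnk2 (2034) and Wnk4 (296). Cre_control 5, with the next lowest sum (639921), had the lowest values of both. SPOP_CKI 2 and 4 had the highest macrophage sums of all libraries, at 7895 and 9818, and the lowest values of Stk39 in their group. Among controls the match was mixed. Cre_control 2 had the highest macrophage sum, at 4289, with Stk39 at 1198, the median of its group. Cre_control 4 had the next sum, at 3590, and the lowest Stk39 (733).

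Endothelial sums were 13685 to 19331 in SPOP_CKI and 20216 to 23728 in Cre_control (3 of 6 called lower), and erythroid sums 4383 to 8040 in SPOP_CKI and 13189 to 27594 in Cre_control (4 of 4 called lower). These sums did not overlap between the groups, as was so for 21.3% of all genes tested. In the endothelial list Kdr, Tek and Emcn were not called. Of all genes tested, 10.0% were called higher and 12.3% lower. The sums overlapped for fibroblasts (23055 to 55759 in SPOP_CKI and 23360 to 27300 in Cre_control, 1 of 6 higher) and for smooth muscle and pericytes (22687 to 34075 in SPOP_CKI and 21410 to 28726 in Cre_control, 1 of 6 higher). They also overlapped for macrophages (2745 to 9818 in SPOP_CKI and 2563 to 4289 in Cre_control, 2 of 6 higher) and for neurons and Schwann cells (256 to 1156 in SPOP_CKI and 352 to 464 in Cre_control, 1 of 4 tested higher). Kidney tubule and gut epithelium markers, from organs where WNK4 and several SLC12 carriers are abundant, summed to 13 to 74 in SPOP_CKI and 19 to 87 in Cre_control. No listed marker in the table was at 0 in all libraries. The part of these cell types in the differences of the 8 genes was not tested.

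Likeness between genes was described by Pearson's r of log2(scaled reads + 1) after the mean of each group was subtracted, over the 10 libraries, which share depth and any outlying library, and among 9849 protein-coding genes with a mean of at least 100. Closest to Wnk1 were Arhgef12 (0.97), Apc (0.96) and Aff4 (0.94), and closest to Wnk2 were Retsat, Pdk2 and Zfp933 (0.98 each). Wnk4 was nearest to Zfp868 and Zfp955b (0.92 each) and Sh3rf2 (0.88). For Stk39 the nearest were Dsc2, Hist2h2be and Lrrc1 (0.97 each), and for Oxsr1 Nr3c1 (0.97), Gm7072 and Ado (0.95 each). For Slc12a2 they were Zfp979, Socs4 (0.98 each) and Zbtb41 (0.97), for Slc12a4 Itga3, Tbkbp1 (0.99 each) and Ppp2r5b (0.98), and for Slc12a7 Cbfa2t2, Slco3a1 (0.96 each) and Cdh2 (0.95). Being the largest of 9849 values over 10 libraries, these are high through selection and carry no p-value.

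Within the 8 genes the closest pairs were Wnk1 with Slc12a7 (0.76), Wnk2 with Wnk4 (0.73), Wnk2 with Slc12a7 (0.73), and Oxsr1 with Slc12a2 and with Stk39 (0.69 each). These values pool both groups, which can differ. For Wnk2 and Slc12a7, library 5 was the highest for both in SPOP_CKI (1143 and 6045 scaled reads). In Cre_control, library 5 was the lowest for Wnk2 (1129) and the highest for Slc12a7 (2579). Slc12a2 and Slc12a4 had the most negative value (−0.58). Wnk1 and Wnk4, which differed between the groups in opposite directions, had a pooled value near 0 (0.08), but the groups were unlike. In SPOP_CKI, library 5 was the highest for both (10793 and 56.7 scaled reads). In Cre_control, library 5 was the highest for Wnk1 (5646) and the lowest for Wnk4 (189).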

How the data were processed

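Poly(A) RNA of heart tissue was sequenced in 10 libraries. The tools were featureCounts 1.5.0-p3, DESeq2 1.20.0 and the build mm10, per the submitters' processing notes; the aligner, the annotation release and the strand setting were not given in the sources used here. For each library the authors deposited a scaled signal (gene reads over a library size factor), from which whole reads were recovered for 100% of values (tolerance 0.001). The authors also deposited a log2 fold change and a p-value per gene. Genotype and title labels gave the groups. The labels do not state that libraries are separate animals, so a p-value reflects only how these libraries spread. Within groups, all pairs differed beyond sampling noise (chi-square over its degrees of freedom at least 12.7).

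Genes with at least 10 scaled reads in at least 5 libraries were fitted with limma 3.58.1 (R 4.3.3, trend and robust) on log2(value + 1), two-sided, with Benjamini-Hochberg adjustment at 0.05; folds are on that scale, which understates low genes. Confidence intervals are 95% from that fit. On recovered reads edgeR 4.0.16 called 3168 genes and DESeq2 1.42.0 called 4141. Other alternatives were TMM, quantile normalization, pseudocounts, filters, array weights, a replicate block and left-out libraries. Positions are those of the deposited table, and transcript lengths are from GENCODE M21.

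The members and lists were chosen with earlier results of these data known. Named are the 8 members, Spop, Cul3, Klhl2 and Klhl3, up to 5 called genes per list and direction (or the 2 with the smallest p where fewer than 2 were called), and the 3 genes most like each member. Wnk3, the antisense and overlapping genes and Xist were added for context. Some genes that the rule takes are counted in their lists but not reported here by name.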

Additional observations from a re-analysis of the deposited data

Results flagged for a closer look

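In 78 groups of 5 libraries examined, 8 held a library far from the other 4 by Dixon's criterion, which chance flags in about 1 in 20 groups. Of the 8 members, Wnk1 had its highest SPOP_CKI library at 10793 scaled reads, with the next at 7592, and Oxsr1 its lowest Cre_control library at 1191, with the next at 1378. In SPOP_CKI, the highest library stood apart for Clic4 (18277, next 12581), Nfat5 (2466, next 1777) and Slc8a1 (4889, next 2815), and the lowest for Slc4a7 (343, next 483). In Cre_control, the lowest library stood apart for Atp1b3 (934, next 1131), and the highest for Slc8a1 (2164, next 1423).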

How the results depend on the processing

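Over 21 alternatives, 3168 called genes became 5320 with array weights and 1935 to 4381 when single libraries were left out. The 7 listed genes called lower became 15 with array weights and 12 without the libraries with Xist reads. With single libraries left out they became 3 to 11. The 12 called higher became 17 with DESeq2, 15 with quantile normalization and 8 to 14 with single libraries left out. The log2 difference of Slc12a4 changed sign to 0.0617 with edgeR, 0.0449 with DESeq2, 0.0798 with array weights, 0.202 without SPOP_CKI 3 and 0.238 without the libraries with Xist reads (−0.186 to 0.202 with single libraries left out), and that of Cul3 to −0.0488 with array weights. The causes were not tested. Of all calls, 44.9% were higher in SPOP_CKI, and 41.5 to 53.1% over the alternatives.

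The labels do not state that the replicate numbers pair the samples. Same-numbered libraries correlated at 0.03 to 0.16, 3 of 5 over 0.1, and 2 of 5 SPOP_CKI libraries correlated best with their own number. Differently numbered libraries correlated at −0.24 to 0.14, and values this low cannot decide whether the samples are paired. With the replicate block 2946 genes were called, with 13 listed genes higher and 7 lower.

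Depth limits the lowest genes, Wnk3, Clcn1 and Slc12a5. Reads per gene do not separate isoforms, and RNA says nothing on protein or phosphorylation.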
